A study of Homo sapiens with 8 samples.

Results

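The genes of the neuropeptide Y (NPY) system and of the neuroendocrine secretory pathway were examined in the Ewing sarcoma line SK-N-MC. The members were named by symbol: the peptide genes NPY, CCK and GRP, the NPY receptor genes NPY1R, NPY2R and NPY5R, the peptidase gene DPP4, and the granin genes CHGA, CHGB and SCG2. All 10 were found, each as 1 of the 60332 rows of the expression table. RNA-seq had been performed on 8 libraries, in 4 groups of 2 biological duplicates. The enhancer-repressed pools, eKD1 and eKD2, carried the lentiviral repressor dCas9-KRAB, a Cas9 without nuclease activity fused to a repressor domain. It was delivered at a multiplicity of infection of 10, with puromycin selection at 1 μg/ml and use within 5 passages. The sample titles call the other cells control and the paper calls them parental or control, so no vector is assumed for them here. Control cells were kept in normoxia or in hypoxia (1% oxygen for 16 h). The eKD1 and eKD2 cells each expressed a different guide flanking the GGAA-repeat element that serves as LOXHD1 enhancer, were kept as polyclonal pools, and are represented here in hypoxia only. A guide and the pool that carries it therefore cannot be told apart. If the control cells lacked the vector and the selection, these cannot be told apart from the guides either.

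NPY is a peptide transmitter of sympathetic neurons that acts on G-protein-coupled receptors, of which Y1, Y2 and Y5 are encoded by NPY1R, NPY2R and NPY5R. DPP4 is a membrane peptidase that trims the N-terminus of NPY, and the trimmed peptide binds Y2 and Y5 but activates Y1 poorly. Ewing sarcoma cells are known to express NPY with Y1 and Y5, and the axis has been studied in hypoxic Ewing tumors. The granins are acidic proteins of dense-core secretory granules, the vesicles in which peptides such as NPY, cholecystokinin (CCK) and gastrin-releasing peptide (GRP) are stored, and they are widely used as neuroendocrine markers.

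Levels are in FPKM, a read density scaled to transcript length and to the size of the library, so they can be compared between genes. Depth relative to replicate 1 of control hypoxia, read from the low values, ranged from 55.7% in replicate 2 of control normoxia to 96.1% in replicate 2 of control hypoxia. LOXHD1, the gene targeted through its enhancer, was at 156 and 169 FPKM in the control cells in normoxia. It was lower in the control cells in hypoxia, at 93.0 and 91.1 FPKM. Its mean was 17.6% of that control hypoxia level in eKD1 and 12.7% in eKD2. CA9, a classical hypoxia-induced gene, stood at 0 in the normoxia libraries and between 56.9 and 82.8 FPKM in every hypoxia library. All 7 Ewing sarcoma markers checked, among them CD99 and NKX2-2, had a mean of at least 1 FPKM. Their sum was 1259 to 1264 FPKM in normoxia, 1159 to 1162 FPKM in control hypoxia, 1343 to 1436 FPKM in eKD1 and 1278 to 1283 FPKM in eKD2. In control hypoxia 5 of the 7 were called lower than in normoxia and 1 higher, by the test described below. Of all genes tested 16% were called lower and 16.2% higher. CCND1 and CD99, with means of 698 and 343 FPKM over the 8 libraries, weigh most in the sum, so it can hide changes of the others. From normoxia to control hypoxia the mean of FLI1 fell from 36.6 to 21.5 FPKM, while that of CD99 rose from 316 to 412 FPKM. Of 7 sympathoadrenal markers, TH and DBH were listed at 0 in every library and 3 others had a mean of at least 1 FPKM, namely HAND2, GATA2 and GATA3. The summed level of that list was 44.5 to 44.8 FPKM in normoxia, 33.9 to 34.0 FPKM in control hypoxia, 45.3 to 50.9 FPKM in eKD1 and 40.2 to 42.4 FPKM in eKD2. Of 3 leukocyte markers PTPRC alone had a mean of at least 1 FPKM and CD3E was listed at 0 in every library. The sum of the 3 was 22.5 to 24.2 FPKM in normoxia and 4.87 to 5.39 FPKM in control hypoxia. It was 10.0 to 10.1 FPKM in eKD1 and 13.9 to 14.3 FPKM in eKD2. All 4 fibroblast markers had a mean of at least 1 FPKM, and their sum was 219 to 225 FPKM in normoxia and 235 to 266 FPKM in the hypoxia libraries. Of the endothelial markers 2 of 3 had a value, and neither reached a mean of 1 FPKM. The Ewing sarcoma, sympathoadrenal and leukocyte sums were lower in control hypoxia than in normoxia, as were NPY1R, NPY5R and SCG2 below, and their part in those results was not tested.

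NPY1R and NPY5R are neighbours on chromosome 4 and are transcribed in opposite directions. In the expression table they are ENSG00000164128.6_3 and ENSG00000164129.11_2. In GENCODE version 44 on GRCh37, where the same genes carry later ID versions, NPY1R spans 164245114 to 164265984 on the minus strand and NPY5R spans 164265044 to 164273086 on the plus strand. They overlap by 941 bases, and 528 bases are exonic in both, which is 13.27% of the exonic length of NPY1R and 15.82% of that of NPY5R. The library kit did not mark strand, so reads in that stretch cannot be assigned to either gene with certainty. In RefSeq on GRCh38.p14 the NPY1R start and the first NPY5R start lie 11296 bases apart. The 250 bases upstream of each start are shown because these members fell together in hypoxia, followed by those of DPP4, which holds the same motif. Capitals mark CACGTG, a palindrome that contains ACGTG, the core letters of a HIF response element, on both strands. The NPY1R window is chr4:163332597-163332846 (minus strand), the NPY5R window is chr4:163343642-163343891 (plus strand) and the DPP4 window is chr2:162074216-162074465 (minus strand).
NPY1R: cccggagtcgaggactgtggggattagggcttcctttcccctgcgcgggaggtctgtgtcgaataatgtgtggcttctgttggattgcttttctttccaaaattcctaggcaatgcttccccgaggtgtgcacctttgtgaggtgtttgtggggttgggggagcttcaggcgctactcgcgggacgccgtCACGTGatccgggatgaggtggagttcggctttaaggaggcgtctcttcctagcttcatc
NPY5R: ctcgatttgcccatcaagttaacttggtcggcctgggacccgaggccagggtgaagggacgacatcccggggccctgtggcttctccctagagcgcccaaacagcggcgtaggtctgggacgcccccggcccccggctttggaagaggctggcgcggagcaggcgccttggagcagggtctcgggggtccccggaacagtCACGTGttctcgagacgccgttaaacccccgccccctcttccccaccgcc
DPP4: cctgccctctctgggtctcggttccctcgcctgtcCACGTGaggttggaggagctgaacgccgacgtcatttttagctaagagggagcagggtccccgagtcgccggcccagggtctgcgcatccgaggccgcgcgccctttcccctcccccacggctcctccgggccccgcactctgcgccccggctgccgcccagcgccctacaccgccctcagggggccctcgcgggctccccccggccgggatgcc

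The motif begins 60 bases upstream of the NPY1R start, 50 bases upstream of the first NPY5R start and 215 bases upstream of the DPP4 start. RefSeq promoters were matched for 8 of the 10 members, with 10 windows in all since CCK and NPY5R have a pair each. CACGTG was found in 3 windows, compared with 6.34% of all 35116 windows of the same length, and ACGTG on either strand in 4, compared with 18.5%. The fourth is the second CCK window, where ACGTG overlaps no CACGTG. GGAAGGAA, the letters of a short GGAA repeat, was found on either strand in 0 of the 10 windows and in 3.06% of all windows. A match describes these letters and does not show binding. The paper lists NPY1R and NPY5R among its Ewing-specific genes regulated by the fusion factor EWSR1::FLI1. Those genes were chosen by their fall on knockdown of the fusion, by low expression in other cancer lines and by regions bound by the fusion. Such regions can lie far from the start, where windows this short cannot show them.

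The other members lie apart from this pair. The IDs given with them are those of the expression table, and the positions are those of GENCODE version 44 on GRCh37. NPY (ENSG00000122585.7_2) spans bases 24323807 to 24331481 of chromosome 7, CCK (ENSG00000187094.11_2) bases 42299317 to 42307677 of chromosome 3, and GRP (ENSG00000134443.9_3) bases 56887390 to 56898006 of chromosome 18. NPY2R (ENSG00000185149.5_2) also lies on chromosome 4, from 156129788 to 156138230. DPP4 (ENSG00000197635.9_3) spans 162848755 to 162930904 and SCG2 (ENSG00000171951.4_3) 224461658 to 224467079 on chromosome 2. CHGA (ENSG00000100604.12_4) spans 93389495 to 93401630 on chromosome 14 and CHGB (ENSG00000089199.9_3) 5892156 to 5905999 on chromosome 20.

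The members spanned the whole range of expression. Averaged over the 8 libraries, GRP was at 629 FPKM and CCK at 580 FPKM, above 98.8% and 98.7% of the 15372 genes tested. NPY1R followed at 77.1 FPKM, NPY at 19.5 FPKM and NPY5R at 9.67 FPKM. SCG2 at 2.05 FPKM and DPP4 at 1.82 FPKM were low, CHGA at 0.283 FPKM and CHGB at 0.0444 FPKM were lower still, and NPY2R was listed at 0 in every library. Thus the cells expressed Y1 and Y5 receptor RNA without measurable Y2 receptor RNA, with GRP and CCK RNA at high levels, NPY RNA near the middle of the tested genes and little RNA of the granins. Within every library the order NPY1R above NPY above NPY5R held, with no overlap of the ranges of these genes in any group. GRP and CCK changed places: GRP was above CCK in normoxia and in eKD2, CCK was above GRP in control hypoxia, and their ranges overlapped in eKD1. The ranges of SCG2 and DPP4 overlapped in eKD1, SCG2 was the higher in normoxia, and DPP4 was the higher in control hypoxia and eKD2.

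**Figure D1:**
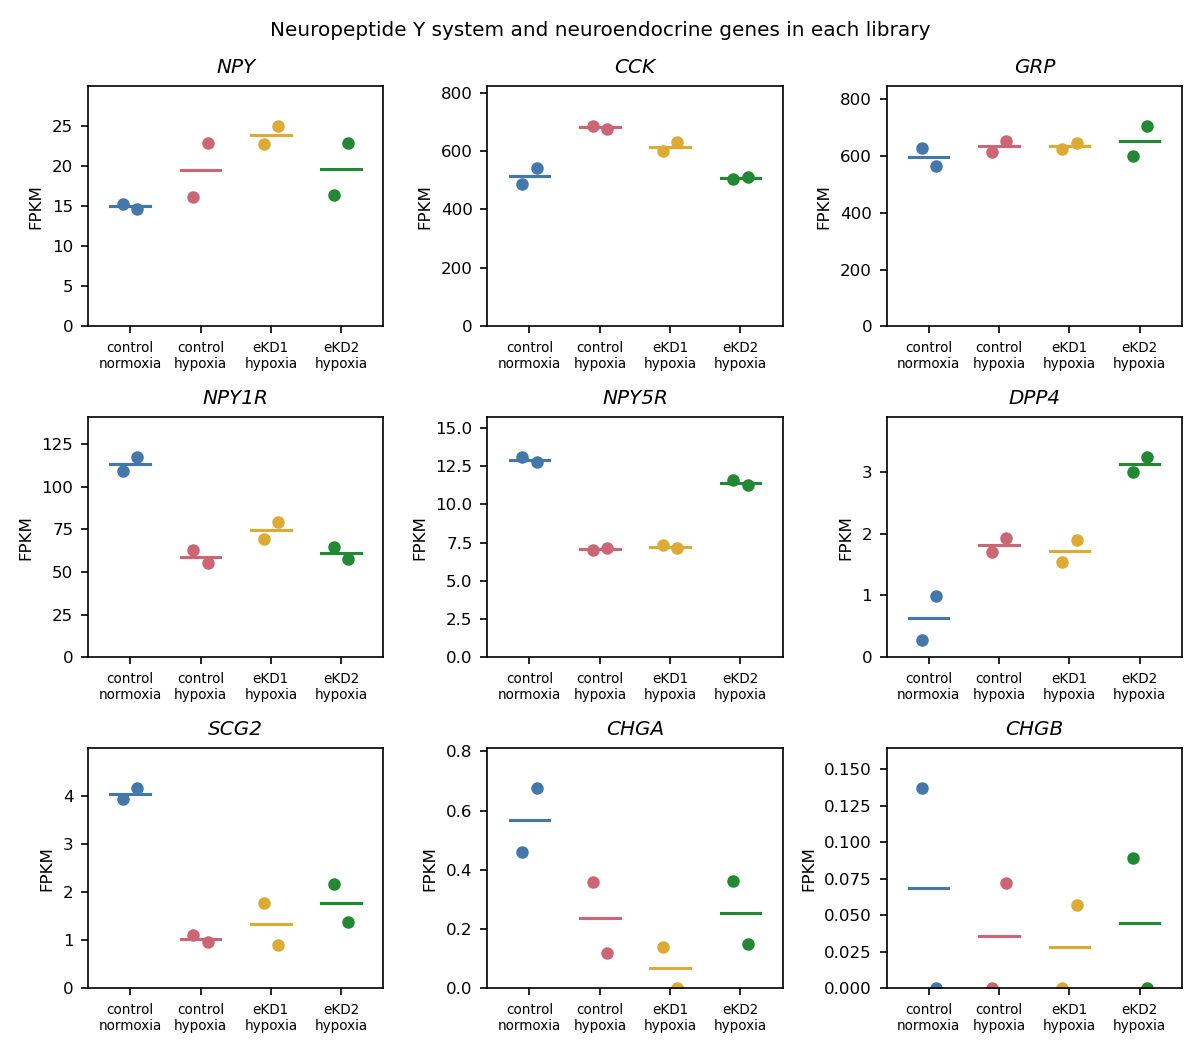
Expression in FPKM (vertical axes, each starting at 0) of 9 members in the 4 groups; each point is 1 library and each line the mean of 2. NPY1R, NPY5R and SCG2 were highest in both normoxia libraries, DPP4 was lowest there, and GRP showed overlapping groups. NPY2R was listed at 0 in all libraries and is left out.

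A gene was tested if 2 or more libraries held 1 FPKM or more of it, with limma on log2(FPKM + 1), a scale that understates changes of low genes, and a gene was called at a Benjamini-Hochberg adjusted p under 0.05 over all genes tested. NPY, CCK, GRP, NPY1R, NPY5R, DPP4 and SCG2 passed this filter. NPY2R, CHGA and CHGB did not, so 7 of 10 members were tested. All differences below are on this log2 scale.

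Control cells in low oxygen were first set against those in normoxia, to ask how hypoxia alters the members. The Y1 and Y5 receptor genes and the granin gene SCG2 fell, and CCK rose. Of the 7 members tested, 1 was called higher and 3 lower. Of all genes tested 16.2% were called higher, 16% lower and 32.2% in either direction, and 4 of 7 is to be read against that last share. Of the calls 50.3% were higher, or 28.4% with equal FPKM totals. The median difference of the 7 members was 0.09, compared with 0.01 over all genes tested.

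Among the receptors, NPY1R was at 110 and 118 FPKM in normoxia and fell to 62.8 and 55.2 FPKM in hypoxia. Both hypoxia libraries lay far below both normoxia libraries, and the mean fell to 52.0% of normoxia. The difference was -0.93 (SE 0.0911, limma adjusted p = 0.00997) and stayed called under every alternative, with adjusted p from 0.00136 to 0.0399. NPY5R was at 13.1 and 12.8 FPKM in normoxia and at 7.03 and 7.17 FPKM in hypoxia. It fell to 54.9% of normoxia, a share close to that of its neighbour, with a difference of -0.78 (SE 0.107, limma adjusted p = 0.0166). In a bulk RNA measurement, fewer cells that express a gene and less RNA per cell cannot be told apart. NPY2R was listed at 0 in all 4 libraries, so no fold was computed.

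Among the ligands, CCK was at 486 and 544 FPKM in normoxia and at 686 and 677 FPKM in hypoxia, 132% of the normoxia mean with no overlap. CCK encodes cholecystokinin, a gut hormone and brain peptide. The difference was 0.41 (SE 0.0673, limma adjusted p = 0.0235). This call was lost with equal FPKM totals (difference 0.16, adjusted p = 0.111), where the median of all genes moved to -0.19, and also without a filter (adjusted p = 0.0817) and without a variance trend (adjusted p = 0.0625). CCK shares 32.53% of its exonic bases with an unnamed long non-coding RNA on the opposite strand, so some of its reads are uncertain. NPY itself was at 15.3 and 14.7 FPKM in normoxia and at 16.1 and 22.9 FPKM in hypoxia. The hypoxia libraries were both above normoxia but far apart from each other, and the difference of 0.34 did not pass the test (95% interval -0.21 to 0.89, limma adjusted p = 0.254). GRP, which encodes a growth-promoting peptide of the bombesin family, was at 629 and 563 FPKM in normoxia and at 614 and 653 FPKM in hypoxia. These ranges overlapped, and the difference was 0.09 (95% interval -0.12 to 0.30, limma adjusted p = 0.405), so a change larger than 0.30 in either direction lay outside the interval.

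DPP4 was at 0.282 and 0.994 FPKM in normoxia and at 1.71 and 1.92 FPKM in hypoxia. The groups did not overlap, but the normoxia libraries differed more than 3-fold from each other. The difference of 0.81 did not pass the test (95% interval 0.02 to 1.61, limma adjusted p = 0.103). It passed without replicate 2 of control normoxia (difference 1.13, adjusted p = 0.0189) and in the fit of all 8 libraries (adjusted p = 0.0437). DPP4 passed the filter on low values only through hypoxia libraries.

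Among the granins, SCG2 was at 3.93 and 4.16 FPKM in normoxia and at 1.10 and 0.964 FPKM in hypoxia, 25.5% of the normoxia mean. SCG2 encodes secretogranin II, a granule protein that is also cleaved into the neuropeptide secretoneurin. The difference of -1.31 (SE 0.152, limma adjusted p = 0.0127) was the largest among the members. Without replicate 2 of control hypoxia it was -1.26 with an adjusted p of 0.0504. CHGA, encoding chromogranin A, was at 0.461 and 0.676 FPKM in normoxia and at 0.358 and 0.120 FPKM in control hypoxia. Its values in eKD1 were 0.139 and 0 FPKM, and in eKD2 0.362 and 0.150 FPKM. CHGB, encoding chromogranin B, was listed at 0 in 1 library of each group and was at 0.137, 0.0722, 0.0567 and 0.0894 FPKM in the others, in the order control normoxia, control hypoxia, eKD1, eKD2. Both normoxia values of CHGA lay above all 6 hypoxia values. Multiplied by relative depth, these CHGB values were 3, 2, 1 and 2 times the lowest of them to within 1%, as whole reads would give. The CHGA values above 0 were 1 to 3.27 times the lowest of them and were not all whole multiples. This scale follows reads and not level. Replicate 1 of control hypoxia was at 3.10 and the normoxia libraries at 3.04 and 3.27, at relative depths of 100%, 76.0% and 55.7%. Levels in libraries of unequal depth cannot be compared on it. CHGA was under 1 FPKM in every library and did not enter the test, so the order of its values in FPKM is not read as a fall. CHGB was thus at the level of a few reads, and neither gene was tested.

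**Figure D2:**
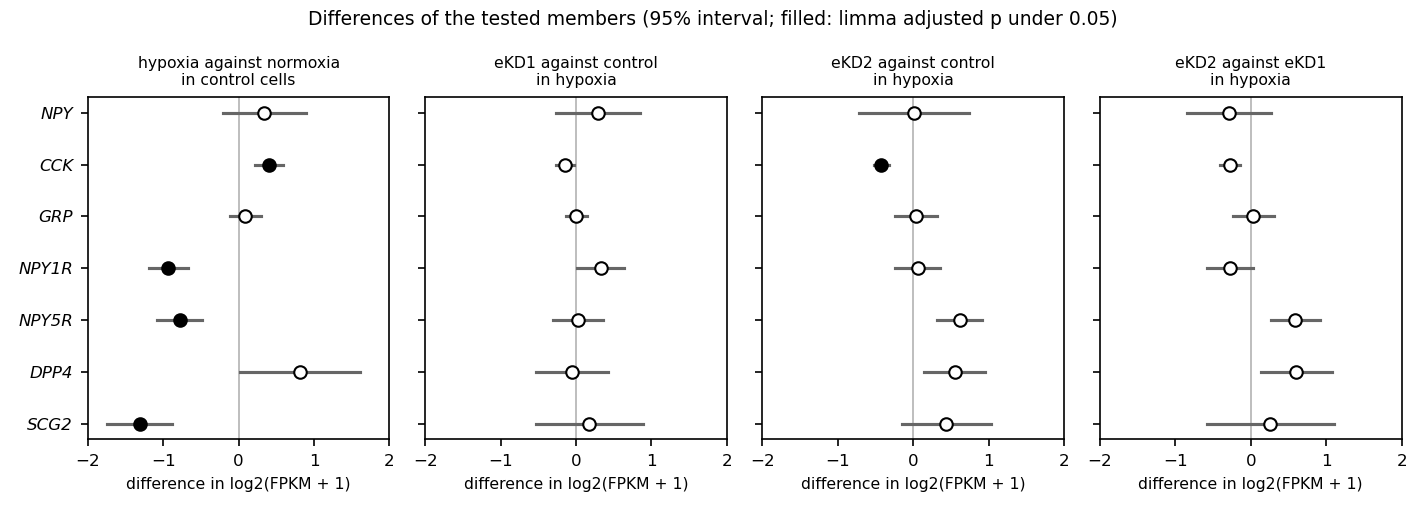
Differences in log2(FPKM + 1) of the 7 tested members (horizontal axes) in the 4 comparisons, with 95% intervals from limma; filled circles passed an adjusted p of 0.05. NPY1R, NPY5R, SCG2 and CCK are filled in hypoxia against normoxia and CCK in eKD2 against control, and no circle is filled in the comparisons of eKD1 with control and of eKD2 with eKD1.

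Each eKD pool was then set against hypoxic control cells, to ask what follows when the LOXHD1 enhancer is repressed. These comparisons share the control hypoxia libraries with each other and with the comparison above, so a chance value of a control library enters all of them. In eKD1, 0 of the 7 members were called by limma, and CCK and NPY1R, 2 in all, had an unadjusted p under 0.05, as did 21.7% of all genes tested. The background was also low, with 0.0651% of all genes called, 0.013% higher and 0.052% lower, and the members' median difference was 0.03 against 0.00 over all genes. In eKD2, CCK alone was called, lower, among the 7, compared with 9.61% of all genes called in either direction, 5.8% higher and 3.81% lower. Of those calls 60.3% were higher, or 77.5% with equal FPKM totals and 46.3% with median-of-ratios scaling. The members' median difference was 0.06 and that of all genes 0.05.

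In eKD1, CCK was at 600 and 630 FPKM, and the eKD2 libraries gave 503 and 513 FPKM, all below the 686 and 677 FPKM of control hypoxia. The eKD2 libraries lay within the normoxia range. The difference from control hypoxia was -0.15 in eKD1 (95% interval -0.27 to -0.03, limma adjusted p = 0.186) and -0.42 in eKD2 (SE 0.0343, limma adjusted p = 0.0273). The eKD2 call was lost when any 1 of 3 libraries was left out, with adjusted p of 0.0577 and 0.0538 without replicates 1 and 2 of control hypoxia and 0.0516 without replicate 1 of eKD2, and without a variance trend (adjusted p = 0.0739). Its direction did not change, and the value stayed between -0.495 and -0.316 over all alternatives.

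The Y1 and Y5 receptor genes, which fell to similar shares in control hypoxia, had different levels in the eKD groups. NPY1R was above both control hypoxia libraries in eKD1, at 69.5 and 79.4 FPKM. In eKD2 it overlapped them, at 65.0 and 57.9 FPKM. Its difference was 0.33 in eKD1 (95% interval 0.02 to 0.64, limma adjusted p = 0.217) and 0.06 in eKD2 (95% interval -0.24 to 0.35, limma adjusted p = 0.745), and neither passed. NPY5R was at 7.33 and 7.16 FPKM in eKD1, next to the 7.03 and 7.17 FPKM of control hypoxia, and at 11.6 and 11.3 FPKM in eKD2, above all other hypoxia libraries and below both normoxia libraries. The difference in eKD1 was 0.03 (95% interval -0.31 to 0.36, limma adjusted p = 0.928). In eKD2 it was 0.62 (95% interval 0.32 to 0.91), at 161% of the control hypoxia mean, with a limma adjusted p of 0.0505 that just missed the threshold. Over the alternatives the adjusted p ranged from 0.0116 in the fit of all 8 libraries to 0.117, and the value from 0.55 to 0.71.

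As a share of NPY1R, NPY5R was 12.0% and 10.9% in the normoxia libraries, 11.2% and 13.0% in control hypoxia, 10.6% and 9.01% in eKD1 and 17.8% and 19.4% in eKD2. The share was thus nearly unchanged between normoxia and hypoxia in control cells and was highest in both eKD2 libraries. It was computed after the values were seen and was not tested. Across the 8 libraries, which share groups and are not independent, the log2 values of the receptors had r = 0.572.

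**Figure D3:**
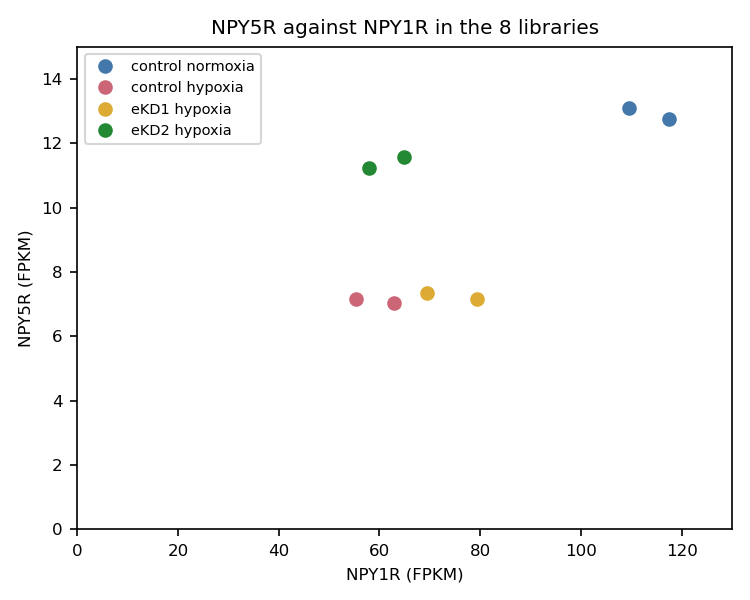
NPY5R against NPY1R in FPKM, 1 point per library, coloured by group, both axes starting at 0. The normoxia points lie at the upper right, the control hypoxia and eKD1 points at low NPY5R, and both eKD2 points at 11.3 and 11.6 FPKM of NPY5R with NPY1R like that of control hypoxia.

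None of the other members was called in the eKD groups. DPP4 was at 1.53 and 1.89 FPKM in eKD1, within reach of control hypoxia, and at 2.997 and 3.24 FPKM in eKD2, above every other library. Its difference in eKD2 was 0.55 (95% interval 0.14 to 0.95), 172% of the control hypoxia mean, and did not pass (limma adjusted p = 0.0938). For SCG2 the eKD1 libraries gave 1.78 and 0.898 FPKM, and the eKD2 libraries 2.17 and 1.38 FPKM. The eKD2 libraries were above those of control hypoxia and below those of normoxia, with a difference of 0.44 that did not pass (95% interval -0.15 to 1.03, limma adjusted p = 0.242). For NPY the values were 22.7 and 25.0 FPKM under eKD1, compared with 16.4 and 22.9 FPKM under eKD2. The eKD2 pair spanned nearly the same range as the control hypoxia pair, and the intervals were -0.27 to 0.85 in eKD1 and -0.72 to 0.74 in eKD2, so a moderate change could not be detected. GRP levels of 625 and 645 FPKM (eKD1) and of 598 and 705 FPKM (eKD2) gave differences of 0.00 (95% interval -0.14 to 0.14) and 0.04 (95% interval -0.24 to 0.31).

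The direct comparison of eKD2 with eKD1 asked whether both guides gave the same levels. Of the 7 members 0 were called by limma, and 3 had an unadjusted p under 0.05, as did 23.6% of all genes tested. Of all genes tested 0.403% were called, which divides into 0.286% that were higher in eKD2 and 0.117% that were lower. The 3 members were NPY5R, DPP4 and CCK. NPY5R was higher in eKD2 by 0.59 (95% interval 0.27 to 0.91, limma adjusted p = 0.107), and DPP4 by 0.60 (95% interval 0.14 to 1.07, limma adjusted p = 0.155). CCK was lower in eKD2 by -0.28 (95% interval -0.41 to -0.14, limma adjusted p = 0.096). In each of the 3, both eKD2 libraries lay on the same side of both eKD1 libraries. In the fit of all 8 libraries NPY5R (adjusted p = 0.0222) and CCK (adjusted p = 0.0433) passed.

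The remaining genes of the pathway were taken from 7 lists with 71 genes in all, of which 34 passed the filter. The rest of the NPY family (PYY, PPY, NPY4R, NPY4R2 and NPY6R) was at or near 0, with 0 of 5 tested, and so were the receptors of CCK and GRP. CCKAR was listed at 0 in every library, and CCKBR and GRPR did not exceed 0.0956 and 0.0621 FPKM in any. The cells thus expressed the CCK and GRP peptide RNAs at high levels with almost no RNA for their own receptors. NMB, the paralogue of GRP, was the 1 tested gene of that list.

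In hypoxia against normoxia in control cells, 9 of the 34 tested pathway genes were called higher and 5 lower, compared with 16.2% and 16% of all genes tested. The median difference was 0.03 beside 0.01 for all genes tested. Of 6 tested genes for other granins and prohormone processing, 2 were higher and 1 lower. PAM, the enzyme that amidates the C-terminus of peptides such as NPY, rose from a mean of 31.4 to 85.3 FPKM (difference 1.42, limma adjusted p = 0.0156), and PCSK1N, a granin-like inhibitor of the convertase PCSK1, from 7.69 to 18.5 FPKM (1.17, limma adjusted p = 0.0101). PCSK2, a convertase that cleaves prohormones, fell from 16.8 to 9.72 FPKM (-0.73, limma adjusted p = 0.0243). Without a filter PAM (adjusted p = 0.064) and PCSK2 (adjusted p = 0.058) were not called. PCSK1 itself was listed at 0 in every library. Of 11 tested genes for dense-core vesicles and exocytosis, 3 were higher and 1 lower. Among the higher genes HID1, which is outside the naming rule and was picked with its values known, had 0.458 and 0.542 FPKM in normoxia and passed the filter only through hypoxia libraries. The lower was CADPS2, a factor that primes dense-core vesicles for release, which fell from 26.2 to 10.4 FPKM (-1.25, limma adjusted p = 0.00941).

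The list counts in this paragraph are to be read beside the 16.2% of all genes tested that were called higher and the 16% called lower. Of 7 tested peptidases related to DPP4 or able to cleave peptides, 1 was higher and 1 lower. DPP9, a cytosolic relative of DPP4, fell from 31.5 to 16.9 FPKM (-0.86, limma adjusted p = 0.0156). Of 4 tested neuropeptide genes outside the members, 0 were higher and 2 lower, and NTS, encoding neurotensin, fell from 14.98 to 8.33 FPKM (-0.77, limma adjusted p = 0.0193). Leaving out replicate 1 of control normoxia or either replicate of control hypoxia cost NTS its call, with adjusted p between 0.0544 and 0.0649. Of 5 tested neuroendocrine regulators and general markers, 3 were higher and 0 lower. ENO2, a neuronal form of the glycolytic enzyme enolase, rose from 86.8 to 274 FPKM (1.65, limma adjusted p = 0.00809), and NCAM1, a neural adhesion molecule, from 4.48 to 11.0 FPKM (1.15, limma adjusted p = 0.0291). The NCAM1 call was lost without a filter (adjusted p = 0.0931) and without replicate 2 of control hypoxia (adjusted p = 0.0535). INSM1 and NEUROD1, transcription factors of neuroendocrine cells, did not exceed 0.387 FPKM in any library.

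**Figure D4:**
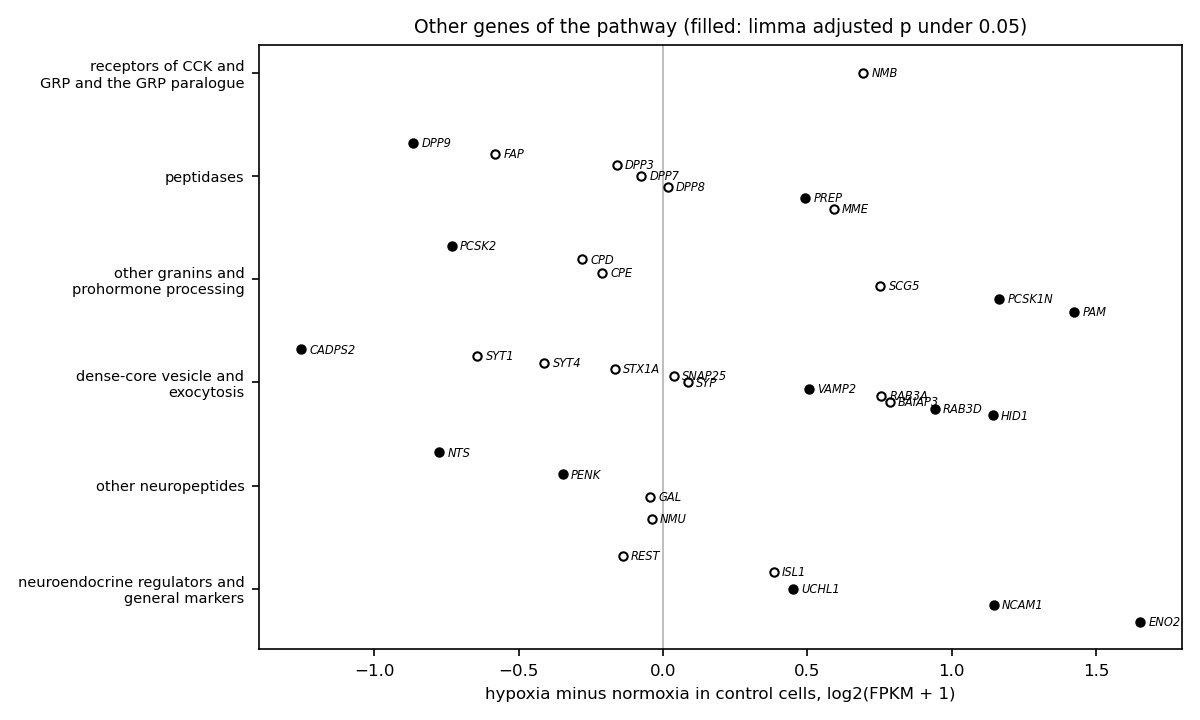
Differences between hypoxia and normoxia in control cells in log2(FPKM + 1) (horizontal axis) for the 34 tested genes of the other pathway lists, 1 row of points per list; filled points passed a limma adjusted p of 0.05. PAM, PCSK1N, NCAM1 and ENO2 lie farthest right among the filled points with at least 5 FPKM and CADPS2 farthest left.

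In eKD1, 0 of the 34 pathway genes were called by limma, beside 0.0651% of all genes, and 9 had an unadjusted p under 0.05, beside 21.7% of all genes. In eKD2, 0 were higher and 2 lower, beside 5.8% and 3.81% of all genes. NTS was at 2.65 and 3.48 FPKM in eKD2 and at 8.52 and 8.13 FPKM in control hypoxia (-1.21, limma adjusted p = 0.0375). UCHL1, an abundant neuronal deubiquitinase, was at 1161 and 1185 FPKM in eKD2 and at 1441 and 1409 FPKM in control hypoxia (-0.28, limma adjusted p = 0.0339). Both calls were lost without replicate 1 of control hypoxia, with adjusted p of 0.0526 for NTS and 0.0558 for UCHL1, without a filter (0.09 and 0.0799) and without a variance trend (0.0562 and 0.116). In eKD2 against eKD1 0 of 34 were called by limma, beside 0.403% of all genes, with 5 at an unadjusted p under 0.05.

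For each tested member with a mean of at least 5 FPKM, the 3 genes with the most similar pattern were found by Pearson correlation of log2 values over the 8 libraries, among 10526 genes. For NPY1R they were TM7SF2 (r = 0.991), SNHG4 (0.987) and AHRR (0.981), and for NPY5R they were SBDSP1 (0.997), NEK1 (0.994) and KIF18A (0.991). CCK was matched by AP002387.1 (0.994), CCM2 (0.991) and E2F1 (0.988). The best matches were looser for NPY, namely ATP2B3 (0.969), SIDT2 (0.949) and RNF103 (0.939), and for GRP, namely ATG7 (0.958), KLHDC10 (0.942) and TMEM206 (0.941). The libraries share groups and depth, and with so many genes high values arise easily.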

How the data were processed

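RNA-seq of 8 SK-N-MC libraries was analysed. Poly-A RNA was sequenced from one end without strand marking, the authors aligned the reads to GRCh37 using STAR, and Cuffnorm produced the FPKM they deposited. How Cuffnorm scaled the libraries to each other is not given in the sources used here. No read totals were used, so absolute depth is unknown, and no interval for a single value or floor was computed. Relative depth is the most frequent ratio of values under 1 FPKM between libraries. Groups and replicate numbers came from the sample titles. Each pair of groups was fitted alone on log2(FPKM + 1), using R 4.3.3 and limma 3.58.1 with moderated variances that follow a trend in mean level. The study used a count model, which these values do not permit. P-values are two-sided, adjusted over 15372 genes, and rest on the spread between these duplicates. The paper calls the duplicates biological, but the labels do not say that they were separate cultures. Simulated data with known changes were used to test the fitting. Genes were matched by symbol, and positions came from GENCODE version 44 on GRCh37, not the release named by the study. Promoter sequences are from RefSeq on GRCh38.p14 and were not mixed with GRCh37 coordinates.

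The members and lists were chosen with earlier results of these data known. Pathway genes were named by rule: in each comparison, up to 4 called genes with the greatest rise and 4 with the greatest fall, provided the groups did not overlap and the higher one reached 5 FPKM. The settings varied were the pseudocount (0.1), the filter (none, or a mean of at least 5 FPKM), the scaling (median of ratios, or equal FPKM totals), the libraries fitted (all 8 together), the variance trend (none) and the replicate number (as a block). Each library was also left out in turn, with the other 7 in 1 fit, where the lone library of a group is assumed to vary like the other groups.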

Additional observations from a re-analysis of the deposited data

Results flagged for a closer look

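The tested members and the pathway genes named by rule were screened for opposite positions of the eKD pools, with PENK and GAL added by hand. In NCAM1, PENK and GAL both eKD1 libraries lay on one side of the control hypoxia mean and both eKD2 libraries on the other. The remaining pathway genes were not screened in this way. The eKD1 libraries had 10.9 and 7.92 FPKM of NCAM1, the eKD2 libraries 14.2 and 12.2 FPKM and the control hypoxia libraries 10.2 and 11.8 FPKM. The direct test of eKD2 against eKD1 gave a difference of 0.46 and did not pass (limma adjusted p = 0.274). PENK was singled out once its values were known. The eKD1 libraries had 2733 and 2714 FPKM of PENK, the eKD2 libraries 2152 and 2131 FPKM and the control hypoxia libraries 2196 and 2188 FPKM. The direct test gave -0.35 and did not pass (limma adjusted p = 0.0705), and in the fit of all 8 libraries it passed (adjusted p = 0.01). GAL, encoding galanin and also singled out once its values were known, had 1.13 and 1.74 FPKM in eKD1, 2.23 and 2.24 FPKM in eKD2 and 2.53 and 1.66 FPKM in control hypoxia. The eKD2 libraries lay within the range of the control pair, and the direct test gave 0.42 and did not pass (limma adjusted p = 0.301).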

How the results depend on the processing

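Of 540 recomputed values of single genes, 477 kept their direction and their side of the threshold, 31 lost a call, 9 gained one and 23 changed sign. The cause was not tested. In hypoxia against normoxia the called members fell from 4 to 2 with the replicate block, without a call for CCK (adjusted p = 0.0557) and NPY5R (0.0527), and the 4946 genes called overall to 2570 with it and to 3024 without a filter. Called members in eKD2, 1 in the analysis above, numbered 2 with a mean filter of 5 FPKM, with equal totals and with all 8 libraries in 1 fit, 0 without a variance trend and with the block, and 0 to 1 when 1 library was left out. In eKD2 against eKD1 they numbered 2 with all 8 libraries in 1 fit. Over all genes, eKD1 had 10 calls, or 206 without a filter, 761 with the shared fit, 6 without a trend, 0 with the block and 20 to 41 with 1 library left out. For eKD2 these were 1477, 853, 2601, 28, 0 and 670 to 1034, and for eKD2 against eKD1 62, 260, 1391, 5, 0 and 190 to 320, with 105 at the mean filter of 5 FPKM. The same replicate numbers did not pair the libraries: deviations of same-numbered libraries correlated between -0.057 and 0.126. Under the block there was also no call for NCAM1 (0.0671), NTS (0.0507) and PCSK2 (0.0642) in hypoxia, and CCK (0.0925), NTS (0.0954) and UCHL1 (0.0943) in eKD2. The sign changes were all among values that did not pass. Equal totals gave -0.151 for GRP in hypoxia and 0.073 for PENK in eKD2. Median-of-ratios scaling gave -0.019 for GRP in eKD1, -0.06 for NPY, -0.036 for GRP and -0.014 for NPY1R in eKD2, and -0.016 for GRP in eKD2 against eKD1. With 1 library left out, eKD1 differences ran from -0.04 to 0.047 for GRP, from -0.15 to 0.041 for DPP4 and from -0.097 to 0.453 for SCG2. Those of eKD2 ran from -0.232 to 0.249 for NPY, from -0.082 to 0.155 for GRP and from -0.034 to 0.148 for NPY1R. In eKD2 against eKD1 they ran from -0.018 to 0.533 for SCG2 and from -0.085 to 0.151 for GRP. For GAL they ran from -0.247 to 0.159 in hypoxia and from -0.125 to 0.282 in eKD2. Equal totals moved the median of all genes from 0.013 to -0.191 in hypoxia, and the share of higher calls from 50.3% to 28.4%. In eKD2 that share went from 60.3% to 77.5%, and to 46.3% with median-of-ratios scaling. Absolute depth is unknown, so genes under 1 FPKM, CHGA and CHGB among them, could not be compared.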

Other observations

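PENK, which encodes the enkephalin precursor, was the most abundant neuropeptide RNA among the genes examined and was singled out after its values were seen. Its mean over the 8 libraries was 2462 FPKM, compared with 629 FPKM for GRP and 580 FPKM for CCK. In control cells it was at 2902 and 2680 FPKM in normoxia and at 2196 and 2188 FPKM in hypoxia, a difference of -0.35 (SE 0.0502, limma adjusted p = 0.0184). The call was lost without a filter (adjusted p = 0.0942) and without a variance trend (adjusted p = 0.0682). PDYN and POMC, the other opioid precursor genes of the lists, did not exceed 0.216 FPKM in any library.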
